A study of Mus musculus with 3 samples.

Results

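The genes described here encode factors that alter the life of messenger RNAs or make the microRNAs that shorten it. They are the ZFP36 family (Zfp36, Zfp36l1 and Zfp36l2), the roquins Rc3h1 and Rc3h2, the nuclease gene Zc3h12a (regnase 1), the microRNA processing genes Drosha, Dgcr8 and Dicer1, and Elavl1, which encodes HuR. They were chosen by name as 10 genes of 19938 with a probe set of their own, each represented by its brightest probe set over the arrays. All 10 were found. Only Rc3h1 had more than 1 probe set. Expression was measured on 3 Affymetrix arrays of double-positive (DP) thymocytes, which carry CD4 and CD8 together, from wild-type C57BL/6 mice. The mice were 5 to 6 weeks old, each array holds a different cohort of littermates, and the cells were taken out of strained thymuses with beads against CD8 and then CD4. Their shared protocol also lists formaldehyde fixation before the sort, without saying whether the cells for RNA were fixed, and the number of mice per cohort is not given. There is a single group, so the comparisons are between cohorts and with the other genes of the arrays.

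The amount of a messenger RNA depends on its synthesis and on its decay, and decay is steered by proteins that recognise short elements, mostly in the 3′ untranslated region. ZFP36 proteins carry CCCH zinc fingers, bind AU-rich elements and bring in the CCR4-NOT complex, which removes the poly(A) tail. Roquins and regnase 1 recognise stem-loops, and HuR binds AU-rich and U-rich stretches and often stabilises its targets. Drosha and DGCR8 cut hairpins out of primary microRNA transcripts in the nucleus, and Dicer cuts the hairpin to the mature duplex in the cytoplasm. In developing T cells ZFP36L1 and ZFP36L2 are known for restraining the cell cycle, and microRNAs such as miR-181a for tuning the response to the T cell receptor.

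The arrays carried the markers of the labelled cell type. All 9 measured DP markers, among them Cd4, Cd8a, Cd8b1 and Rag1, lay above background on every array. A value counts as above background where it exceeds the 95th percentile of a set of probe sets for genes of organs other than the thymus. This limit was 7.35, 7.46 and 7.38 (log2) on arrays 1, 2 and 3. Array 1 stood apart from the other arrays. Over 28939 probe sets, which are not independent replicates, array 1 had a Pearson correlation of 0.993 with each other array, and arrays 2 and 3 had 0.996. Array 1 was the array with high Xist (11.65, against 5.40 and 5.68) and with Eif2s3y, Kdm5d and Uty below background, so a difference in the sex of the cohorts and every other difference between array 1 and the rest cannot be told apart.

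All 10 genes were expressed in DP thymocytes in all 3 cohorts. Each lay above background on every array, against 41.2% of all genes, and the smallest margin over the limit was 0.81 log2 units, for Zc3h12a on array 2. The order of the arrays differed between the genes, in shares near those of other genes. The 3 ZFP36 genes and Zc3h12a, 4 of the 10, were highest on array 1, against 34.5% of all genes. Rc3h1 and the microRNA processing genes Drosha and Dicer1 differed by at most 0.15 log2 units between any 2 arrays. Rc3h2, Dgcr8 and Elavl1, 3 of the 10, were lowest on array 1, against 39.3% of all genes. For Elavl1 the range over the arrays was only 0.19. Levels of different genes were not ranked, since a probe set's brightness also depends on its probes. In whole-population RNA, fewer cells with a transcript and less of it per cell cannot be told apart.

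**Figure D1:**
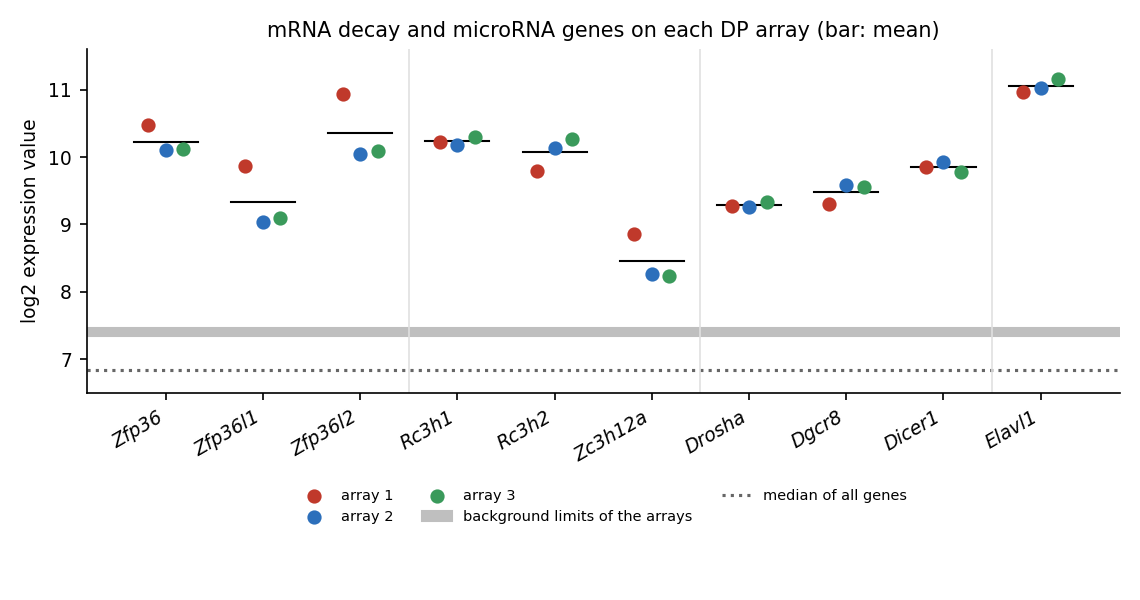
The log2 expression value of each gene (vertical axis) is a point for each array, with the mean of the 3 arrays as a bar, the background limits of the arrays as a grey band and the median of all genes, 6.85, as a dotted line. All points lie above the band, and the red points of array 1 stand above the other arrays for Zfp36, Zfp36l1, Zfp36l2 and Zc3h12a.

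Zfp36l2 had the widest spread over arrays of the 10 genes. Its log2 values were 10.94, 10.05 and 10.09 on arrays 1, 2 and 3, or 10.36 ± 0.50 (mean ± SD, n = 3 here and below). Array 1 was high and the other arrays lay within 0.04 of each other, so the value on array 1 was 1.83-fold that of the mean of arrays 2 and 3. Its paralog Zfp36l1 had 9.87, 9.04 and 9.09, or 9.33 ± 0.47. Again array 1 alone was high, by 1.75-fold over the mean of the others. Zfp36, which encodes tristetraprolin, the founding member and a gene known to be induced within minutes of a stimulus, had 10.47, 10.10 and 10.12, or 10.23 ± 0.21. It was highest on array 1 as well, by 1.28-fold, a smaller difference than those of its paralogs.

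Among the stem-loop binders only Zc3h12a shared this pattern. Regnase 1, its product, is an endonuclease that cuts inflammatory and activation-related messages and is itself cleaved by the MALT1 protease after antigen receptor signals. Zc3h12a had 8.86, 8.27 and 8.24 on arrays 1, 2 and 3, or 8.46 ± 0.35, and array 1 was 1.52-fold above the mean of the others. Rc3h1, whose product roquin 1 restrains messages such as Icos, had 10.22, 10.18 and 10.30, or 10.23 ± 0.06. Its arrays lay close together with array 3 the highest. The second probe set of Rc3h1 had 9.28, 9.14 and 9.20, also a narrow range but with array 1 the highest, so no order of the arrays is given for this gene. Rc3h2, the paralog that overlaps with roquin 1 in function, went the other way from Zc3h12a, with 9.80, 10.14 and 10.27, or 10.07 ± 0.24. Array 1 was its lowest, at 0.76-fold the mean of the others.

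The RNase III genes of microRNA processing, Drosha and Dicer1, had narrow ranges, and Dgcr8 a wider one. Drosha, the RNase III of the nuclear step, had 9.27, 9.26 and 9.33 on arrays 1, 2 and 3, or 9.29 ± 0.04, the smallest SD of the 10 genes. Dicer1, the RNase III of the cytoplasmic step, had 9.85, 9.93 and 9.78, or 9.85 ± 0.08. For both genes array 1 lay between the other arrays. Dgcr8, the RNA-binding partner of Drosha, had 9.31, 9.58 and 9.55, or 9.48 ± 0.15, and was lowest on array 1, at 0.84-fold the mean of the others. Elavl1 had 10.97, 11.03 and 11.16, or 11.05 ± 0.10, with array 1 the lowest by 0.06 log2 units. Its SD did not exceed the 0.104 expected at its level, so its order of arrays is not set against that of the ZFP36 genes.

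None of the 10 genes passed the test of variation between cohorts. That test was a limma fit over all 28939 probe sets, which compares each probe set's variance with that of probe sets of the same level. At a Benjamini-Hochberg adjusted p under 0.05 it called 0 of the 10 genes and 6 probe sets in all (0.0207%). At an unadjusted p under 0.05 it held 3 of the 10 genes, against 4.66% of all probe sets. Those were Zfp36l2 (unadjusted p = 0.0037, limma adjusted p = 0.845, range 0.716 to 0.994 over 12 settings), Zfp36l1 (unadjusted p = 0.0052, limma adjusted p = 0.894, range 0.764 to 0.994) and Zc3h12a (unadjusted p = 0.020, limma adjusted p = 0.988, range 0.969 to 0.994). The upper end of each range came from leaving out array 1, where none of the 10 genes had an unadjusted p under 0.05. The SDs of these genes were 0.50, 0.47 and 0.35, where about 0.105 to 0.111 was expected at their levels. Zfp36 (limma unadjusted p = 0.098) and Rc3h2 (limma unadjusted p = 0.060) had adjusted p = 0.988. The differences of array 1 are therefore values of a single cohort, with no replicate and no call. A miss in this test does not show that the cohorts were alike.

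**Figure D2:**
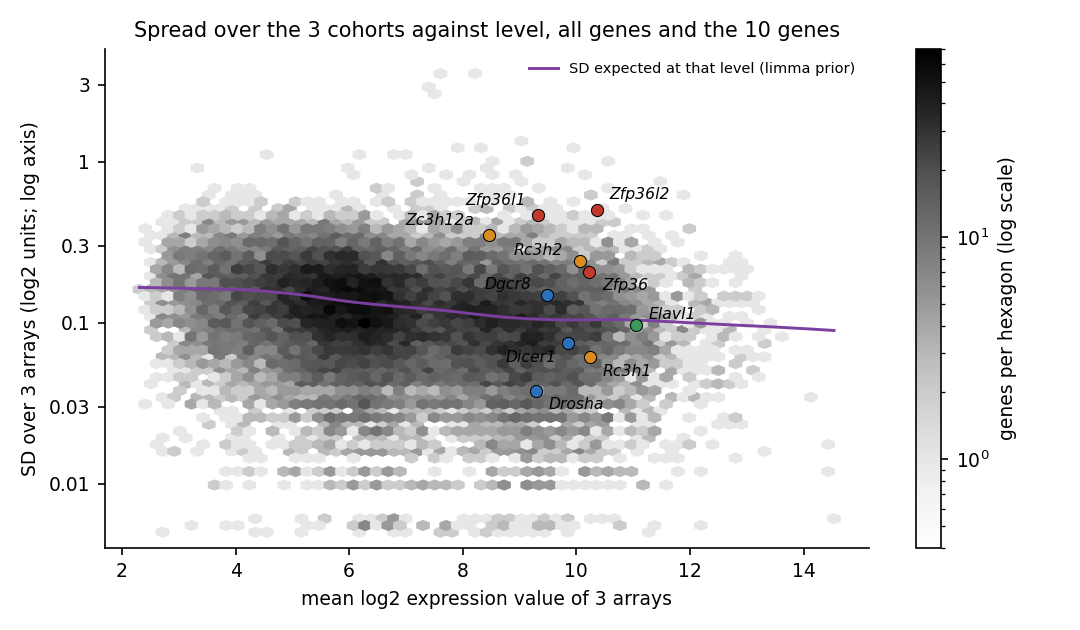
The SD over the 3 arrays (vertical axis, log2 units on a log axis) is set against the mean log2 value (horizontal axis) for all genes (grey hexagons, darker where more genes lie) and for the 10 genes (coloured points), with the SD expected at each level as a purple line and SDs near 0 drawn in the lowest row. Zfp36l2 and Zfp36l1, at SDs of 0.50 and 0.47, lie farthest above the line, and Drosha, at 0.04, lies farthest below.

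Set against all genes, the departure of array 1 was concentrated in part of the set. By a limit of 1.5-fold, chosen after the values were seen, 3 of the 10 genes (Zfp36l2, Zfp36l1 and Zc3h12a) were higher on array 1 than on each other array, against 1.00% of all genes and 1.23% of the genes above background on all 3 arrays. None of the 10 was lower by that limit, against 0.331% of all genes. Zc3h12a passed by little, with array 1 at 0.59 above the higher of the other arrays where the limit is 0.585, and Zfp36 lay outside at 0.35. After quantile normalization the count was 2. Being highest on array 1 by any amount was found for 4 of the 10 genes and 34.5% of all genes, and being lowest for 3 of the 10 and 39.3% of all, so the order of arrays alone was near that of other genes.

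**Figure D3:**
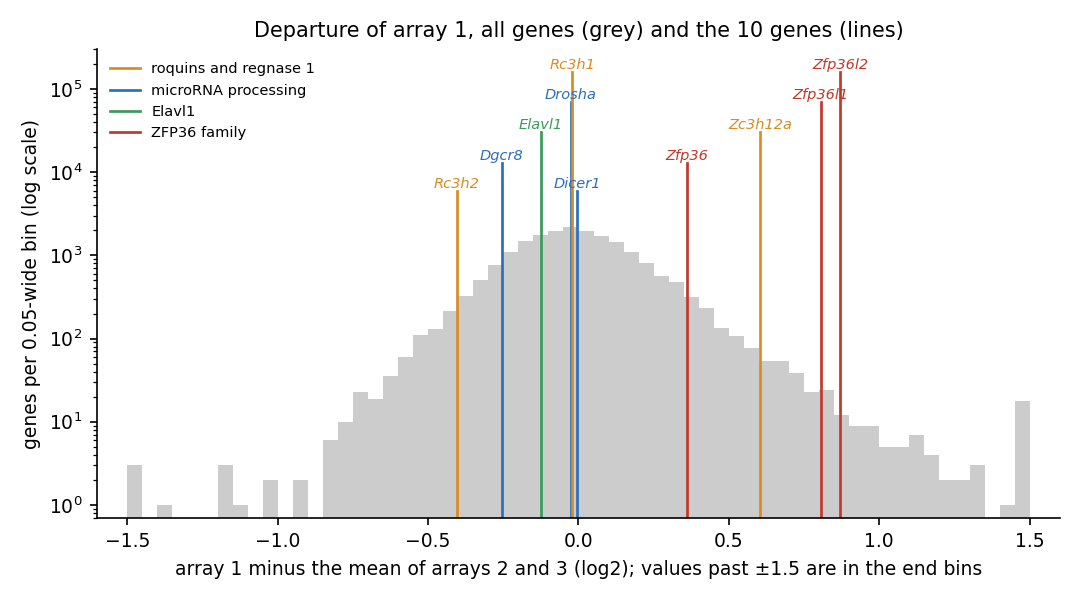
Genes per bin (vertical axis, log scale) are counted by the difference of array 1 from the mean of arrays 2 and 3 (horizontal axis, log2), with the 10 genes as coloured lines whose heights only separate their names. Most genes lie near 0, Zfp36l2 and Zfp36l1 lie at 0.87 and 0.80 in the sparse right tail, and Rc3h2 lies at -0.41 on the left.

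Zfp36l1 and Zfp36l2 had similar deviations over the arrays, and Zfp36 less so. Of the 8219 other genes above background on all arrays, ranked by the Euclidean distance of their 3 deviations from the mean to those of Zfp36l2, Zfp36l1 was the 7th nearest, at 0.05 log2 units, Zc3h12a was the 93rd, and Zfp36 was the 383rd, at 0.42. The 5 nearest were Nfkb2 (9.51, 8.60 and 8.65 on arrays 1, 2 and 3), Ier5 (9.95, 9.09 and 9.11), Dusp10 (11.38, 10.52 and 10.53), Mideas (9.03, 8.15 and 8.22) and Dusp2 (9.91, 9.06 and 9.11). With 3 arrays this measure mainly ranks genes by how far array 1 departs, so it describes these cohorts only.

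The promoters of the genes that were high on array 1 are shown because these genes had their highest value on the same array, although none passed the variance test. Upstream sequences were available from RefSeq (build GRCm38.p6) for all of the 10 genes but Zfp36l2. The 250 bases before the annotated start are printed 5′ to 3′ for Zfp36 (chr7:28379229-28379478, minus strand), Zfp36l1 (chr12:80113014-80113263, minus strand) and Zc3h12a (chr4:125127882-125128131, minus strand). Capitals mark matches to any of 6 motifs.
Zfp36: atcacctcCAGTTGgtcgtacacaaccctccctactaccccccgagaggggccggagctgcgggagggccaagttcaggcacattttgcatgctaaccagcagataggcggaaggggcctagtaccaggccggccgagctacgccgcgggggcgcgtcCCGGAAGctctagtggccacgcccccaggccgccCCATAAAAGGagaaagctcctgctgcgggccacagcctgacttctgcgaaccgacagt
Zfp36l1: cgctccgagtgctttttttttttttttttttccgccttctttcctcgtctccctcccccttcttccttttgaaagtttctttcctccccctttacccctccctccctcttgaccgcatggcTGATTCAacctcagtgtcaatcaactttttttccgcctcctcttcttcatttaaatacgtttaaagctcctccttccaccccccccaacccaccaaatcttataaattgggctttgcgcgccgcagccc
Zc3h12a: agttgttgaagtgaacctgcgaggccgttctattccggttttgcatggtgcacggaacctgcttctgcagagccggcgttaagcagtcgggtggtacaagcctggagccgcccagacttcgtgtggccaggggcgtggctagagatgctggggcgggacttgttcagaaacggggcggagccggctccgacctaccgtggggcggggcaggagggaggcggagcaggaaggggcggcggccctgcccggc

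The motifs were searched on both strands and chosen with these sequences in view. They were the AP-1 site TGANTCA, the cyclic AMP response element TGACGTCA, the CArG box bound by serum response factor, an ETS site CCGGAAG, a RUNX site TGTGGT and an E-box CAGNTG. No matches overlapped in the windows shown. Zfp36 held a CArG box match 58 to 49 bases before the start, a motif found in 1.47% of 32851 promoter windows of the same length. It also held an ETS match (6.91% of windows) 92 to 86 bases before the start and an E-box match (44.8% of windows). Zfp36l1 held an AP-1 match 129 to 123 bases before the start (6.75% of windows), and so did Rc3h1, which was not high on array 1. The Zc3h12a window held none of the 6. Among the other genes only Drosha held a match, to the ETS site. The cyclic AMP response element (1.55% of windows) and the RUNX site (14% of windows) were in no window of the 9 genes. These are matches of letters and say nothing of binding.

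The genes these factors work with were detected nearly throughout. In 10 lists of decay and microRNA machinery, 97 of 108 measured genes exceeded the background limit on every array, against 41.2% of all genes. Of the 108, 37 of 108 (34.3%) were highest on array 1, against 34.5%. None passed the limma variance test over all probe sets, and 6 had an unadjusted p under 0.05, against 4.66% of all probe sets. Only Tob1 and Bcl10, 2 of the 108, passed the 1.5-fold limit on array 1, against 1.00% of all genes, and 0 were that much lower, against 0.331%. Bcl10 was singled out after its values were seen. Tob1, an adaptor that links RNA-bound proteins to the CCR4-NOT deadenylases and restrains proliferation, had 9.81, 8.76 and 8.94 on arrays 1, 2 and 3. Bcl10, which partners MALT1, the protease that cleaves regnase 1 and the roquins, had 8.95, 8.10 and 8.04. Array 1 was the highest for both, but 2 of 108 is a share near that over all genes.

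Listed genes of CCR4-NOT, the complex that ZFP36 proteins recruit, and of other deadenylases were all detected. All 14 CCR4-NOT, PAN2-PAN3 and PARN genes lay above background, against 41.2% of all genes. Their median difference of array 1 from the mean of the others was -0.04 log2 units, against -0.02 for all genes. Cnot1, the scaffold that ZFP36 proteins bind, had 11.58 ± 0.04, and the further subunits Cnot2, Cnot3 and Cnot4 had 10.77 ± 0.11, 10.22 ± 0.18 and 9.08 ± 0.05. Of the 5 measured BTG and TOB adaptors, 4 lay above background. Btg1, Btg2 and Tob1 had 12.76 ± 0.04, 10.67 ± 0.12 and 9.17 ± 0.56, whereas Btg4, an oocyte factor, had 3.86 ± 0.20 and was below background on every array. The median difference of array 1 in this short list was 0.34, which is the value of Btg4 and so of a gene below background. Among the adaptors above background it ran from -0.065 for Btg1 to 0.96 for Tob1.

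The enzymes that degrade the message after the tail is removed were detected throughout. All 19 genes of decapping and 5′ to 3′ decay lay above background. The decapping enzyme Dcp2 and its activator Dcp1a had 8.96 ± 0.16 and 8.77 ± 0.06, and the exonuclease Xrn1 and the helicase Ddx6 had 10.55 ± 0.07 and 12.44 ± 0.04. All 17 exosome and 3′ to 5′ decay genes lay above background too, with Exosc10, Dis3, Exosc3 and Skiv2l at 10.47 ± 0.02, 9.08 ± 0.08, 8.25 ± 0.13 and 9.54 ± 0.11. All 7 measured genes of nonsense-mediated decay, among them Upf1 (9.97 ± 0.04), Upf2 (9.73 ± 0.02), Smg1 (11.24 ± 0.05) and Smg6 (9.81 ± 0.04), were above background. Their median difference of array 1 was -0.02, and those of the decapping and exosome lists were -0.05 and -0.01. All 6 terminal nucleotidyl transferases, which add tails to RNAs and to microRNA precursors, were above background, with Tut4 and Tut7 at 10.15 ± 0.05 and 10.55 ± 0.08 and Tent2 and Tent4b at 10.21 ± 0.13 and 9.48 ± 0.23.

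Partners of Drosha, Dicer and the silencing complex were mostly present. Of 9 processing partners, 6 lay above background, including Xpo5, which exports hairpins to the cytoplasm (9.17 ± 0.02), the Dicer partner Tarbp2 (8.32 ± 0.12) and the helicase Ddx5 (12.86 ± 0.06). Prkra (6.98 ± 0.07) and the let-7 inhibitors Lin28a (6.95 ± 0.03) and Lin28b (4.59 ± 0.13) were below background on every array, though Prkra and Lin28a exceed a limit set at the background median plus 1. Of 9 Argonaute and GW182 genes, 8 lay above background, and Ago4 (5.13 ± 0.03) did not on any array. Ago1, Ago2 and Ago3 had 9.57 ± 0.13, 10.21 ± 0.03 and 8.22 ± 0.09. The median differences of array 1 were -0.01 for the processing partners and -0.06 for the Argonaute list.

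Other proteins that bind AU-rich and similar elements were partly detected. Of 14 measured, 9 lay above background on every array, with Hnrnpd (AUF1) at 11.61 ± 0.05, Khsrp at 9.93 ± 0.12, Tia1 at 10.32 ± 0.18 and Tial1 at 9.85 ± 0.03. The paralogs of Elavl1 that are known from neurons, Elavl2 (5.97 ± 0.06), Elavl3 (6.56 ± 0.17) and Elavl4 (3.84 ± 0.07), were below background on every array, so Elavl1 was the detected member of its family. Igf2bp1 (5.82 ± 0.06) was below background too, and Igf2bp3 exceeded it on array 2 alone (6.73, 7.64 and 7.25). Of 8 partners and paralogs of roquin and regnase, 7 lay above background, among them Zc3h12b (7.81 ± 0.06), Zc3h12d (7.67 ± 0.14) and N4bp1 (8.94 ± 0.14). Zc3h12c was not (7.01 ± 0.13). These calls lie near the limit, since Zc3h12b and Zc3h12d are lost with the 99th percentile and Zc3h12c is gained with the background median plus 1.

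**Figure D4:**
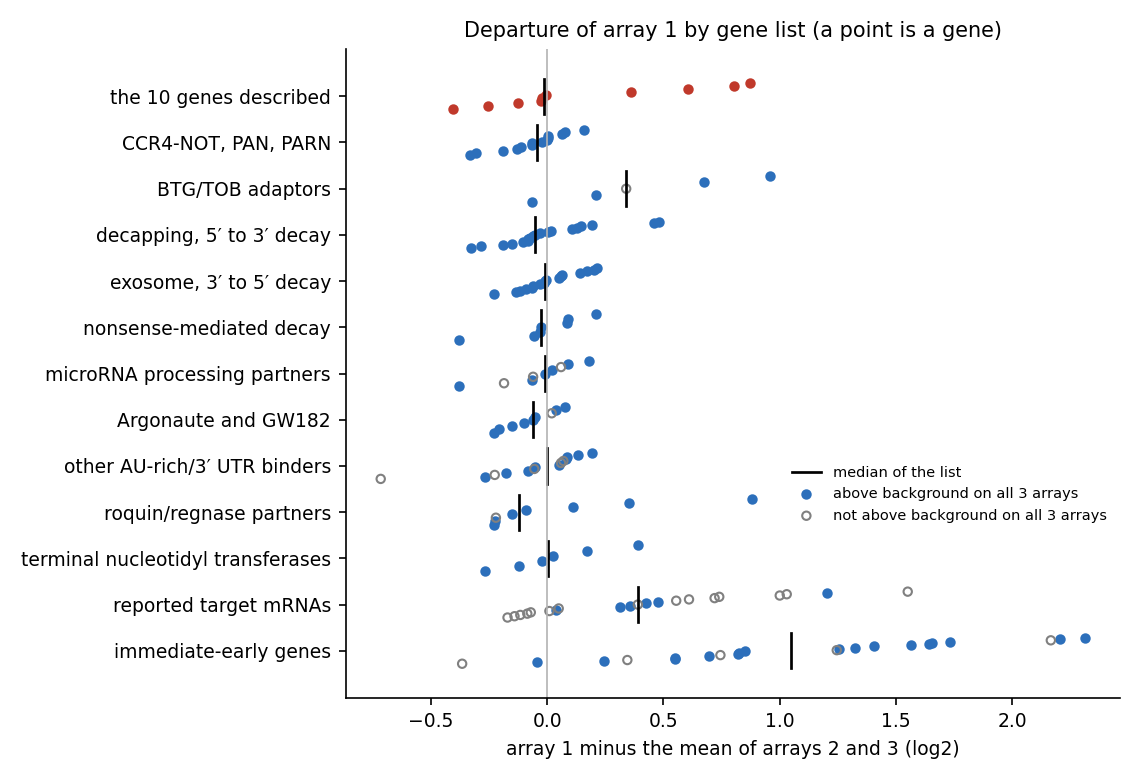
Each point is a gene, placed by the difference of array 1 from the mean of arrays 2 and 3 (horizontal axis, log2) in the row of its list, filled where it lies above background on all 3 arrays and open where it does not, with a bar at the list's median. The lists of decay enzymes lie around 0, while the immediate-early genes, with a median of 1.05, and 4 of the 10 genes lie to the right.

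Of 21 messages that ZFP36 proteins, roquins or regnase 1 are reported to bind, 6 exceeded the background limit on every array, against 41.2% of all genes, and 11 did not on any. Tnf, the best known target of tristetraprolin, had 7.87, 6.85 and 6.83 on arrays 1, 2 and 3 and was above background on array 1 alone. Csf2 (4.88 ± 0.06) and Il2 (4.47 ± 0.10) were below background, and Notch1, reported as a target of ZFP36L1 and ZFP36L2, had 10.87, 10.54 and 10.57. Of the 21, 13 were highest on array 1, against 34.5% of all genes, and 6 passed the 1.5-fold limit there, against 1.00%. Of those 6, only Rel exceeded the background limit on every array. Ier3 (6.42 on array 1) and Ptgs2 (5.88 on array 1) were below background on every array. Tnf and Ctla4 exceeded it on array 1 alone, and Vegfa was below it on array 2. Rel, an NF-kappaB subunit and target of regnase 1 singled out after its values were seen, had 10.14, 8.92 and 8.95, so this message was high on the same array as Zc3h12a. None passed the limma variance test over all probe sets, and 7 had an unadjusted p under 0.05, against 4.66% of all probe sets. Icos, the roquin target, had 7.97, 7.87 and 7.99, with array 1 between the others, and is not above background with the 99th percentile as the limit.

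The immediate-early genes, a list chosen with earlier results of these data known, were mostly highest on array 1 as well. Of 22 measured immediate-early and stress genes, 20 were highest on array 1 and 15 passed the 1.5-fold limit, against 34.5% and 1.00% of all genes, with a median difference of 1.05 log2 units. In the limma variance test 0 of the 22 had an adjusted p under 0.05 and 18 an unadjusted one. The AP-1 subunit gene Fos had 9.39, 7.86 and 8.27 in array order. Its partners Jun (11.01, 9.65 and 9.56) and Junb (9.65, 7.97 and 7.87) were likewise high on array 1, while Egr1 was so by less (8.55, 8.28 and 8.33). Of the 22, 17 exceeded the background limit on every array, against 41.2% of all genes. Fos and Junb lose this call with the 99th percentile as the limit. The difference of 0.87 for Zfp36l2 and of 0.80 for Zfp36l1 was smaller than those of Fos, Jun and Junb, and larger than that of Egr1.

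Marker lists of cell types also differed between the arrays. The background shares are 34.5% of genes with their highest value on array 1 and 39.3% with their lowest. Of 19 myeloid and dendritic markers, 13 were highest on array 1 and the mean level of the list was 6.94, 6.40 and 6.69 on arrays 1, 2 and 3, but only the class II genes H2-Ab1 and H2-Eb1 exceeded the limit on every array, and the defining Lyz2, Csf1r, Itgam and Itgax were below it on each. Of 10 NK and innate markers, 7 were highest on array 1, the mean level was 6.68, 6.32 and 6.46, and 3 lay above background. The B cell list had 5.94, 5.81 and 5.89, with 1 of 10 above background. Of the 9 DP markers, 8 were lowest on array 1, with mean levels of 11.51, 11.77 and 11.73. By the 1.5-fold limit 1 of the 9 was lower on array 1, against 0.331% of all genes. That gene was Rag2, with 8.69, 9.51 and 9.54. Of 11 thymic epithelium markers, 9 were lowest on array 1, with mean levels of 6.72, 6.93 and 6.93, 2 of them above background on every array, while the defining Foxn1 was below it. By the 1.5-fold limit 4 of the 19 myeloid and dendritic and 1 of the 10 NK and innate markers were higher on array 1. The share over all genes was 1.00%. Of the 11 thymic epithelium markers 1 was lower, against 0.331%. Among the markers past the limit in these 3 lists, only H2-Ab1 exceeded the background limit on every array. Class II messages also differed between arrays 2 and 3, as in Cd74 with 8.83, 7.27 and 8.05. The part of the immediate-early response, of these cells and of sex in the values of the ZFP36 genes was not tested.

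The products of Drosha and Dicer are shown for the loci whose hairpin probe sets lay above background, with the seed (bases 2 to 8) in capitals. Of 26 measured microRNA loci, 8 exceeded the limit on every array, against 41.2% of all genes, and 16 did not on any. With the 99th percentile as the limit, Mir155, Mir15a, Mir16-1 and Mir15b lose this call. A hairpin probe set reads the locus and does not separate primary transcript, hairpin and mature microRNA, and short hairpins give few probes. The mature sequences are those of RefSeq (build GRCm38.p6), the 5p arm except for miR-142a and miR-150. For miR-150 the sequences used held the 3p arm alone, so the seed of its 5p arm is not shown.
mmu-miR-181a-5p: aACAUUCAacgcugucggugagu
mmu-miR-181b-5p: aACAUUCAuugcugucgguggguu
mmu-miR-15a-5p: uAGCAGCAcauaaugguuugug
mmu-miR-15b-5p: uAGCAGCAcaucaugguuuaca
mmu-miR-16-5p: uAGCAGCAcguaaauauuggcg
mmu-miR-142a-3p: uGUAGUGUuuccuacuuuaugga
mmu-miR-150-3p: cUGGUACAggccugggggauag
mmu-miR-155-5p: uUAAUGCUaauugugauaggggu

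By shared seed these fall into the miR-181 group, the miR-15 and miR-16 group and 3 single microRNAs. Mir181a-1 had 8.20, 8.90 and 9.84 on arrays 1, 2 and 3, and its neighbour Mir181b-1 had 10.06, 10.61 and 10.99. Both loci, which lie on chromosome 1 within the same stretch, were lowest on array 1 and highest on array 3. Rc3h2 also had this order, as did Elavl1 within a range of only 0.19 log2 units, and the ZFP36 genes did not. Neither passed the limma variance test (adjusted p = 0.418 for Mir181a-1 and 0.893 for Mir181b-1). Mir142 had 8.67, 8.75 and 8.99, and Mir150 had 8.16, 8.30 and 8.04, and neither was highest on array 1. Mir17 was below background on every array (6.48, 6.31 and 6.85), as was its host transcript Mir17hg (6.27, 6.71 and 6.61).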

How the data were processed

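RNA of 3 samples of DP thymocytes was hybridised to 1 Affymetrix array each. The authors deposited 1 number per probe set and array, on a log2 scale judging by its range. They used the R package affy, per the submitters' processing notes. The settings of affy were not given in the sources used here, nor was its version. Values were used as deposited. The array distributions are nearly the same, so a global difference in RNA would not be visible. Of 35556 probe sets, the 6617 numbered below the first with a gene symbol were left out as a likely control block. Symbols came from the platform annotation, 21789 probe sets having 1 symbol, 1621 several and 12146 none, and 6 list entries were matched through RefSeq synonyms. The brightest probe set stood for a gene. The background limit used 99 probe sets of 97 genes of other organs. Of 388 list entries 363 were measured.

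Variation was tested with an intercept-only fit in limma 3.58.1 (R 4.3.3), each variance against a robust mean-dependent prior (F test, Benjamini-Hochberg adjustment over all probe sets). On simulated data, with variances drawn from the fitted prior, it found large shifts of a single array. It made no call for planted shifts near the size seen in the 10 genes, whose exact sizes were not simulated. Python 3.11.15, numpy 2.4.6 and pandas 2.3.3 did the rest. The 10 genes and the lists were chosen with earlier results of these data known. Named genes were the 10, the first 4 measured entries of a list, entries on the minority side of the background limit where these were 5 or fewer, and the 5 genes nearest to Zfp36l2, the gene of the 10 with the largest SD. Bcl10, Rel, Ctla4, Vegfa, Ier3, Ptgs2, Icos, Cd74, Rag2 and the named microRNA loci past the first 4 were picked from their values. Alternatives were other scalings, probe set choices, background limits, priors and probe set filters, and leaving out each array. The number of arrays limits the precision. Labels call the cohorts biological replicates, without saying how many mice each held.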

Additional observations from a re-analysis of the deposited data

How the results depend on the processing

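All 10 genes lay above background under each alternative background limit, scaling, probe set choice and array left out, and 0 passed the limma variance test under any of its settings. The 97 machinery genes above background became 91 with the 99th percentile and 100 with the background median plus 1 as the limit. The number of the 10 genes with an unadjusted limma p under 0.05 was 3 or 4 except without array 1, where it was 0. The calls over all probe sets were unstable, with 6 as reported, 3 with a prior that was not robust, 0 with a prior without trend or with dim probe sets removed, and from 0 to 18 when an array was left out. Higher on array 1 than the others, Zfp36, Zfp36l1, Zfp36l2 and Zc3h12a kept their sign in every setting that kept array 1, with ranges of 0.35 to 0.38, 0.78 to 0.83, 0.85 to 0.89 and 0.58 to 0.62. The small negative differences of array 1 changed sign for Dicer1 (0.01 with median centring, and from -0.08 to 0.07 with an array left out), for Rc3h1 (0.11 with its dimmest and 0.045 with the mean of its probe sets, and from -0.08 to 0.04 with an array left out) and for Drosha (from -0.06 to 0.01 with an array left out), and the cause was not tested. Differences from array 1 have no value without it. No paired analysis was possible because there is only 1 group.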

Other observations

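Another pair of neighbouring microRNA hairpins, chosen after their values were seen, had a different order of arrays from the miR-181 loci. Mir15b had 8.31, 7.59 and 7.83 on arrays 1, 2 and 3, and Mir16-2, which lies next to it on chromosome 3, had 7.65, 6.95 and 7.34, above background on array 1 alone. Their unadjusted p in the limma variance test was 0.021 and 0.029, with adjusted p = 0.988 for both. Mir15a and Mir16-1, the related pair on chromosome 14, had 8.22, 7.78 and 8.01, and 7.76, 7.81 and 8.05, so their highest arrays differed.

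Among the reported targets, Ctla4, chosen after its values were seen, had 8.47, 7.08 and 6.76, above background on array 1 alone, so the size of its difference is not known (limma adjusted p = 0.418). Vegfa, chosen likewise, had 8.34, 7.25 and 7.43, below background on array 2.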
